A study of Mus musculus with 8 samples.

Results

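The IFIT genes of the mouse were described in total RNA from RAW264.7 cells, a macrophage-like line derived from a mouse tumour. The members were the rows of the count table whose identifiers carry the symbols Ifit1, Ifit2, Ifit3, Ifit3b and Ifit1bl1 in GENCODE release M21, which gave 5 genes of 55450. A single further row with an Ifit symbol, Ifit1bl2, is given beside them. One line of cells carried a control shRNA that silences no gene (shNS). The other carried an shRNA directed at Dis3l2 (shDis3l2), which encodes an exoribonuclease that degrades RNAs with a uridine tail. Both lines were grown for 4 days with 1 µg/mL doxycycline, an antibiotic commonly used to switch on an shRNA, or without it. With doxycycline each line had 3 libraries, and without it each had 1. The title of the series ties Dis3l2 to innate immune activation by cellular RNAs. The main comparison is between the lines with doxycycline, where Dis3l2 was lower in shDis3l2. It cannot tell lowered Dis3l2 from other differences between the lines, which also differed without doxycycline. Below, genes that rose or fell were higher or lower in shDis3l2 than in shNS. The labels do not say whether a line was a clone or a pool of cells, or whether replicates were separate cultures, so the p-values may reflect technical spread between samples alone.

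IFIT proteins, interferon-induced proteins with tetratricopeptide repeats, are among the most strongly induced products of type I interferon. Interferon binds its receptor, the kinases Jak1 and Tyk2 are activated, and the transcription factor complex ISGF3, which includes Stat2 and Irf9, binds the interferon-stimulated response element (ISRE) in front of target genes. IFIT proteins then act on RNA and on translation. Ifit1 binds RNA whose cap lacks ribose methylation, a sign of RNA not finished by the cell's own capping enzymes, and keeps it from being translated. Ifit2 binds RNA and the initiation factor eIF3, and Ifit3 forms complexes with other members. Ifit3b is a mouse duplicate of Ifit3, and Ifit1bl1 and Ifit1bl2 are Ifit1-like genes.

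All 6 genes lie in a single cluster on chromosome 19 (GRCm38, positions from GENCODE). In order they are Ifit2 (ENSMUSG00000045932, 34550694 to 34576419, plus strand), Ifit3 (ENSMUSG00000074896, 34583531 to 34588731, plus), Ifit1bl1 (ENSMUSG00000079339, 34592891 to 34601956, minus), Ifit3b (ENSMUSG00000062488, 34607970 to 34613401, plus), Ifit1bl2 (ENSMUSG00000067297, 34617049 to 34640743, minus) and Ifit1 (ENSMUSG00000034459, 34640871 to 34650009, plus). Because these genes respond to ISGF3, the 300 bases from 250 before to 50 after each RefSeq start (GRCm38.p6) were searched on both strands for the ISRE-like motif GAAANNGAA. It was present in 4 of 5 members, beside 9.76% of 27025 genes. Ifit1, Ifit3 and Ifit3b each held 3 matches and Ifit1bl1 held 2, while 0.624% of 32851 windows held 2 or more. A second RefSeq start of Ifit1bl1, inside the gene, also had 2. Ifit2 had 0 matches in the windows of both its starts, which says only that these letters are not in those windows. The stretches that carry the matches are printed here, with matches in capitals (a match to the minus strand reads TTCNNTTTC). Each runs up to a base before the annotated start, and the stretch for Ifit1 is the whole gap between Ifit1 and the oppositely transcribed Ifit1bl2, so that its 3 matches lie before both genes.
Ifit1, chr19:34640744-34640870, plus strand: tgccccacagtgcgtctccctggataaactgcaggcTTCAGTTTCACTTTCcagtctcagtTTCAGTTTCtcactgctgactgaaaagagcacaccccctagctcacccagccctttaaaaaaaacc
Ifit3, chr19:34583369-34583528, plus strand: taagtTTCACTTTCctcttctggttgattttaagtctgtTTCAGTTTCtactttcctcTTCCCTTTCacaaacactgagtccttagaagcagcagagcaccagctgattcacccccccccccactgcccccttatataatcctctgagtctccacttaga
Ifit3b, chr19:34607765-34607956, plus strand: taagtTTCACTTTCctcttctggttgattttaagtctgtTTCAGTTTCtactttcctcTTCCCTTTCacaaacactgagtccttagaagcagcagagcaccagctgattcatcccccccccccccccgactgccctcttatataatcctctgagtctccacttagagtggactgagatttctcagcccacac
Ifit1bl1, chr19:34601969-34602165, minus strand: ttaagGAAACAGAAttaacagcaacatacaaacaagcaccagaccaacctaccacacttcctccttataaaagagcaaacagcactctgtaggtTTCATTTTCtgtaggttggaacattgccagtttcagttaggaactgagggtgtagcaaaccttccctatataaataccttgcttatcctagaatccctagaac

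In the stretch of Ifit1 the first run of capitals holds 2 overlapping matches. The windows of Ifit3 and Ifit3b were near copies of each other: 216 of 224 aligned columns were identical (96.4%), and the matches lay in the same spacing. In Ifit3 the first bases of the matches were at -155, -121 and -102 from the start, and in Ifit3b at -187, -153 and -134. A match is a description of the letters and not a measured binding site.

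Copying extends through the coding sequence, and this limits how far reads can be assigned. The coding sequences of Ifit3 and Ifit3b are both 1212 bases long and differ at 11 positions (99.1% identical), with an identical run of 329 bases. Of all 150-base windows of the Ifit3 transcript, the length of a read, 18.5% also occur in Ifit3b, and 16% of those of Ifit3b occur in Ifit3. With windows of 50 bases the shares were 51.2% and 44.5%. A 150-base window stands for a single read, and shares for pairs of reads, as sequenced here, were not computed. The stretch printed here holds 4 of the 11 differences, in capitals, and is the part of the coding sequence where they are most dense.
Ifit3, coding bases 199 to 288: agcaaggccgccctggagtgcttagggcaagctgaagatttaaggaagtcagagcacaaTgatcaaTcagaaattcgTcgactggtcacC
Ifit3b, coding bases 199 to 288: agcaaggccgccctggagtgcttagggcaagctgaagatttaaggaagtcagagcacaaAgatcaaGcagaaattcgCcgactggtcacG

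The other pairs were easier to tell apart. Ifit1 and Ifit1bl1 were 73.1% identical in coding sequence and shared no 150-base window, and Ifit2 shared none with any of the other 5 genes. Ifit1 shared 1.24% of its windows with Ifit1bl2. RSEM, named in the submitters' processing notes, divides a read among genes it fits equally well, so the counts of Ifit3 and Ifit3b are estimates of a split, and their sum is the firmer value. Ifit3 took 74.8 to 100% of the counts of the pair across the 8 libraries.

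Libraries held 30341847 to 45557831 counts. Dis3l2 itself was at 33.0, 28.7 and 22.0 CPM in shNS and 12.0, 13.5 and 14.9 CPM in shDis3l2 with doxycycline (log2 fold change -1.05, SE 0.19, edgeR adjusted p = 0.0216), and at 29.7 and 28.6 CPM without it. Leaving out any of the 3 shDis3l2 libraries ended the Dis3l2 call (highest edgeR adjusted p = 0.112). Macrophage markers were expressed (8 of 8, summed level 6348 to 10750 CPM in shNS and 5780 to 8448 CPM in shDis3l2), with mixed directions between the lines. Adgre1 and Fcgr3 were called lower in shDis3l2 (log2 fold change -2.70 and -1.57, edgeR adjusted p = 0.0368 and 0.00704, the former lost with any of 4 libraries left out), and the other 6 were not called, Cd68 and Lyz2 at -0.70 and -0.72 and Csf1r, Itgam, Spi1 and Ptprc at 0.52, 0.58, 0.56 and 0.08. Defining markers of NK (3 of 3) and epithelial cells (4 of 4) were at 0 in every library, and those of T cells (4 of 5 at 0), fibroblasts (3 of 4) and B cells (1 of 4, Ms4a1) summed to at most 0.230 CPM. Of 3 plasmacytoid dendritic cell markers, Siglech had 17 to 35 counts in each shDis3l2 library and 0 or 1 in each shNS library, and the 3 together summed to 168 to 210 CPM in shNS and 220 to 307 CPM in shDis3l2. Its part in the results on the IFIT genes was not tested. Among the controls, shNS replicate 2 with doxycycline correlated more closely across 15250 genes with shNS without doxycycline (r = 0.984) than with replicates 1 (0.939) and 3 (0.945), so IFIT values are also given without it.

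Ifit1, the sensor of incompletely capped RNA, was low in shNS and clearly expressed in shDis3l2. Its level, in TMM-normalized CPM (counts scaled to a common library size), was 1.35, 0.615 and 0.950 in the shNS libraries with doxycycline (replicates 1, 2 and 3, from 43, 21 and 33 counts). In shDis3l2 with doxycycline it was 11.0, 15.7 and 18.3 CPM. Every shDis3l2 library lay well above every shNS library, so the groups did not overlap. The log2 fold change was 3.95 (SE 0.36, 95% interval 3.11 to 4.78), a 15.4-fold difference, with an edgeR quasi-likelihood adjusted p of 0.00232 over all 13752 genes tested.

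Ifit2, a member that binds eIF3, had the highest level of the family per kilobase of exon in every library. Among the 4 members tested, Ifit2 had the smallest difference. It was at 11.4, 3.81 and 7.63 CPM in shNS and 21.1, 29.5 and 27.5 CPM in shDis3l2. The groups did not overlap, but the shNS libraries spread widely, with replicate 2 lowest. Ifit2 was 3.42-fold higher in shDis3l2 (log2 fold change 1.78, SE 0.38, 95% interval 0.86 to 2.69, edgeR adjusted p = 0.0455). This call sits just inside the threshold of 0.05. Leaving out shNS replicate 3 ended the call (edgeR adjusted p = 0.107), and so did leaving out any of the shDis3l2 replicates 1, 2 and 3 (0.0925, 0.165 and 0.143 in the same test), while the log2 fold change stayed between 1.45 and 2.22 over all alternatives.

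Ifit3, the complex-forming member, was below 1 CPM in shNS and at several CPM in shDis3l2. Its shNS values were 0.976, 0.176 and 0.489 CPM, of which replicate 2 rested on 6 counts, and its shDis3l2 values were 6.77, 10.0 and 9.69 CPM. The log2 fold change was 4.01 (SE 0.56, 95% interval 2.70 to 5.32, edgeR adjusted p = 0.00990). Its duplicate Ifit3b was at 0.189, 0 and 0.0576 CPM in shNS and at 1.17, 3.39 and 3.16 CPM in shDis3l2. That is a ratio of 30.8 from 274 against 8 summed counts (95% counting interval 15.4 to 72.1, counting error only), with a log2 fold change of 4.94 (SE 0.87, edgeR adjusted p = 0.0211). Ifit3b passed the filter on low counts through the shDis3l2 libraries alone. Of the 3 shNS libraries, 2 reached the minimum of 0.291 CPM for Ifit3 and none did for Ifit3b. Without shNS replicate 1, which held 5.52 of the 7.76 summed shNS expected counts of Ifit3b, the log2 fold change was 6.34, and over all alternatives it ran from 4.36 to 6.34. Its call was lost without shNS replicate 3 or shDis3l2 replicate 2 or 3 (edgeR adjusted p = 0.0630, 0.0935 and 0.0840). With Ifit3 and Ifit3b summed, so that the split of shared reads no longer matters, the log2 fold change of the pair was 4.20 (edgeR adjusted p = 0.0137).

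The Ifit1-like genes stayed at a few counts. Ifit1bl1 had 2, 2 and 4 counts in shNS and 8, 18 and 12 in shDis3l2, and did not pass the filter. Its 38 against 8 summed counts give a ratio of 4.28 (95% counting interval 1.96 to 10.6), and without the filter the edgeR adjusted p was 0.130 (log2 fold change 2.14, SE 0.68). Ifit1bl2, which shares its upstream gap with Ifit1, had 2, 4 and 5 counts in shNS and 17.1, 10.0 and 13.0 in shDis3l2 (log2 fold change 1.68, SE 0.46, edgeR adjusted p = 0.0810). Like Ifit3b it passed the filter through shDis3l2 alone, and without the filter the edgeR adjusted p was 0.165. Ifit1bl2 is transcribed away from Ifit1 across the 127-base gap, and its level per kilobase in shDis3l2 was 0.105 CPM, beside 5.65 CPM for Ifit1.

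**Figure D1:**
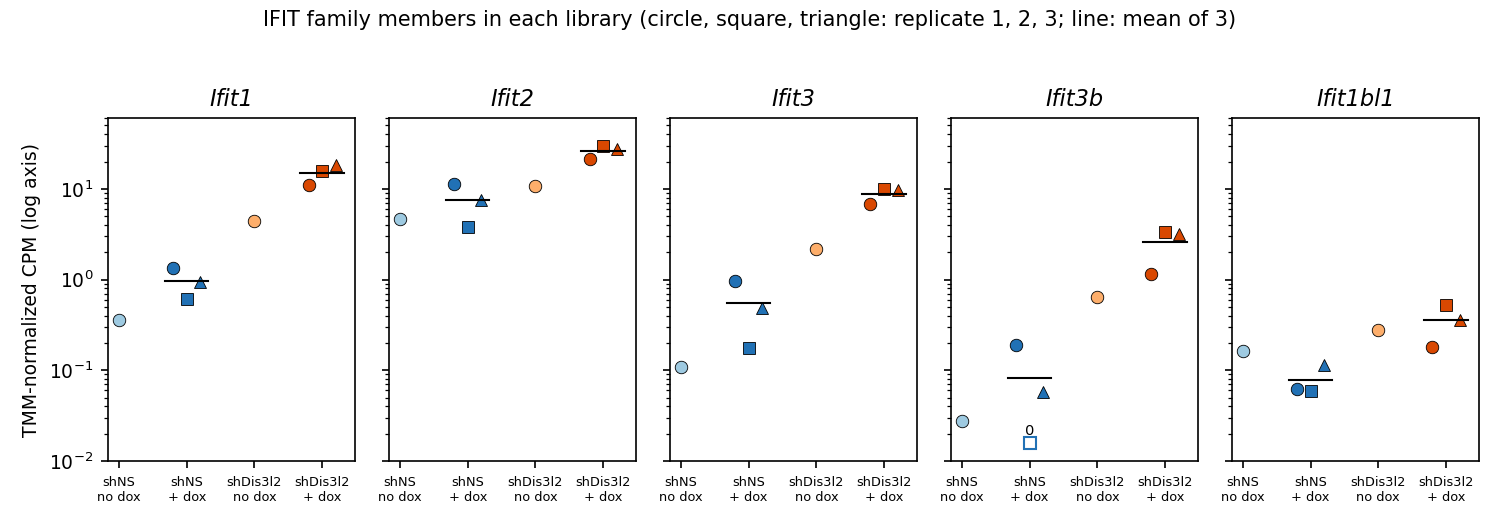
Level of each member in each library, as TMM-normalized CPM on a log axis, with libraries grouped by line and doxycycline. Points are libraries, horizontal lines are means of 3 libraries, and an open symbol marks a value of 0. In all 5 panels the 3 shDis3l2 libraries with doxycycline lie above the 3 shNS libraries with doxycycline.

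Of the 5 members, 4 passed the filter and all 4 were called higher in shDis3l2, where 2.13% of the 13752 genes tested were called higher and 6.14% were called in either direction (1.44 to 8.24% with a library left out, lowest without shDis3l2 replicate 2). The groups did not overlap for any of these 4 members, a pattern that 13.2% of genes tested had in this direction. Ifit3b entered the test only through its high group, and Ifit3 reached the filter's minimum in only 2 of the 3 shNS libraries. The filter asks for 3 libraries, so these counts describe the members and are not a test of the family. An exact permutation test over the 6 libraries gave p = 0.10, two-sided, for each member, which is the smallest value that 3 against 3 allows. Left without shNS replicate 2, the library that stands apart, the same 4 members were called and the log2 fold changes were 3.70 for Ifit1, 1.45 for Ifit2, 3.59 for Ifit3 and 4.36 for Ifit3b (edgeR adjusted p = 0.00187, 0.0164, 0.00391 and 0.0159). Ifit1 and Ifit3 were called under every alternative run, including each library left out in turn. Ifit3 came close to the threshold without shDis3l2 replicate 1, 2 or 3 (edgeR adjusted p = 0.0418, 0.0497 and 0.0466). Ifit1 was at 0.0134, 0.0154 and 0.0132 in the same fits. In bulk RNA, a larger share of cells that express a gene and more RNA per cell cannot be told apart.

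The shNS libraries differed among themselves in a shared order. For Ifit1, Ifit2, Ifit3 and Ifit3b, replicate 1 was highest, replicate 3 was next and replicate 2 was lowest. In shDis3l2, replicate 1 was the lowest of its group for all 5 members, and it was also the most deeply counted library.

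Ifit2 took a larger share of the family's counts in every shNS library than in any shDis3l2 library. Ifit1, Ifit3 and Ifit3b took larger shares in shDis3l2, without overlap. Shares of Ifit1bl1 overlapped (0.449 to 3.13% in shNS and 0.455 to 1.53% in shDis3l2). The shares in a library add up to the whole, so these differences are not separate results, and no share over all genes stands beside them. Ifit2 gave 81.6 to 82.6% of the 5 members' counts in the shNS libraries with doxycycline and 87.5% in shNS without it. In shDis3l2 it gave 46.6 to 52.5% with doxycycline and 58.6% without it. Ifit1 took 9.66 to 13.2% in shNS with doxycycline and 26.5 to 31.1% in shDis3l2. Per kilobase of exon, the ratio of Ifit2 to Ifit1 was 5.71, 4.19 and 5.43 in shNS with doxycycline and 1.30, 1.27 and 1.02 in shDis3l2. The groups did not overlap, and an exact two-sided permutation test of the log2 ratio gave the smallest possible p of 0.10 (0.15 after Benjamini-Hochberg adjustment over the 3 ratios compared). Ifit2 over Ifit3 separated the lines as well, at 5.20, 9.63 and 6.93 against 1.38, 1.31 and 1.26 (exact p = 0.10, adjusted 0.15). The ratio of Ifit3 to Ifit1 overlapped, at 1.10, 0.435 and 0.784 in shNS and 0.937, 0.975 and 0.804 in shDis3l2 (exact p = 0.60).

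Compared per kilobase of exon, which makes levels comparable between genes, the order in shDis3l2 with doxycycline was Ifit2 at 6.63 ± 1.13 CPM per kb (SD, n = 3), Ifit1 at 5.65 ± 1.40, Ifit3 at 5.06 ± 1.03, Ifit3b at 1.29 ± 0.611 and Ifit1bl1 at 0.157 ± 0.0757. The means of the first 3 of these lay within a standard deviation of their neighbour in the order. Within each of the 3 libraries the order Ifit2, Ifit1, Ifit3 held, with Ifit2 and Ifit1 close in replicate 3 (7.01 and 6.91 CPM per kb). Ifit3b and Ifit1bl1 were separated from the members above them in every library. In shNS with doxycycline Ifit2 stood alone at 1.94 ± 0.971 CPM per kb. Ifit1 followed at 0.366 ± 0.139 and Ifit3 at 0.313 ± 0.231, which overlapped. Ifit3b (0.0411 ± 0.0484) and Ifit1bl1 (0.0349 ± 0.0139) overlapped as well and rested on 8 summed counts each.

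**Figure D2:**
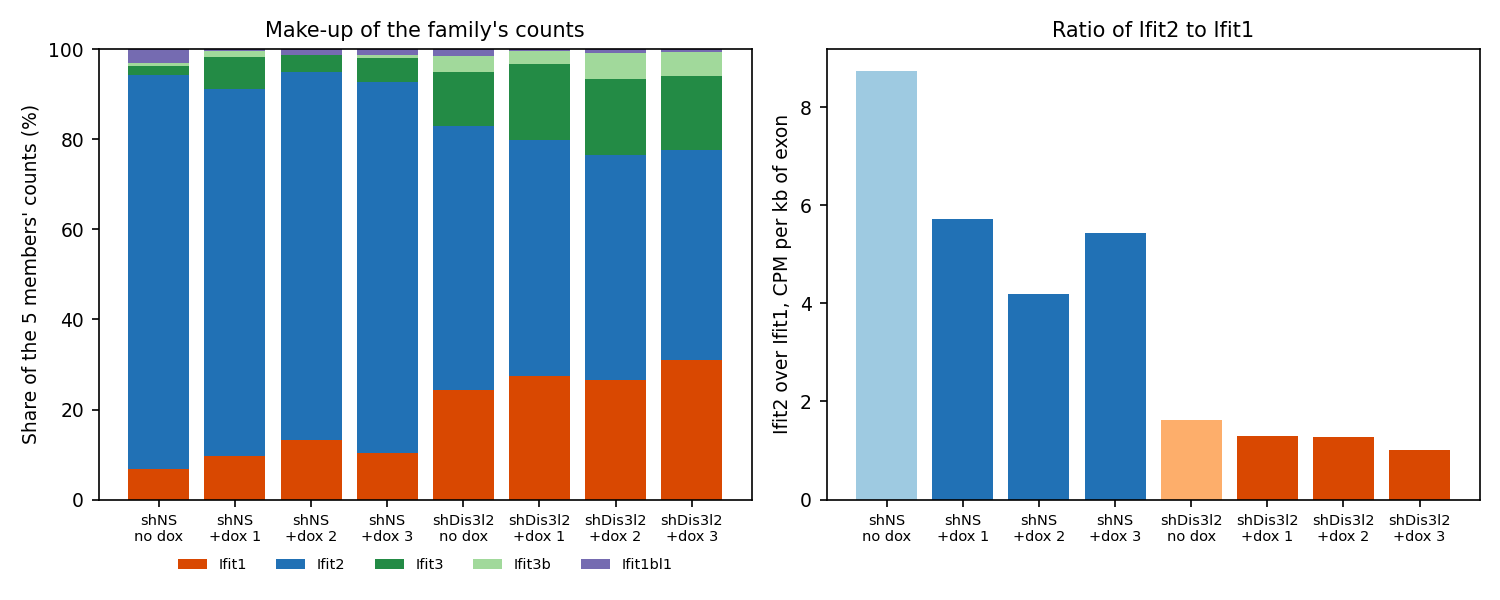
Left, share of the 5 members' summed counts taken by each member in each of the 8 libraries, in percent. Right, ratio of Ifit2 to Ifit1 in CPM per kilobase of exon, with 1 bar per library. Ifit2 takes at least 81.6% in the 4 shNS libraries and at most 58.6% in the 4 shDis3l2 libraries, and the ratio is at least 4.19 in the former and at most 1.62 in the latter.

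Without doxycycline, with 1 library per line, Ifit1, Ifit2, Ifit3 and Ifit3b were higher in the shDis3l2 library, by more than counting error. Dis3l2 was at a ratio of 0.965 (95% counting interval 0.887 to 1.05). This shNS library was most like shNS replicate 2 with doxycycline (r = 0.984), the treated replicate lowest for these genes. Ifit2 in shDis3l2 without doxycycline (10.7 CPM) was not above shNS replicate 1 with it (11.4 CPM), while Ifit1, Ifit3 and Ifit3b were above every shNS library. The intervals given here cover counting error only. Ifit1 had 13 counts in shNS and 175 in shDis3l2 (0.357 and 4.45 CPM), a ratio of 12.5 (7.10 to 23.9). Ifit2 had 168 and 420 counts, a ratio of 2.31 (1.93 to 2.78). Ifit3 had 4 and 86.3 counts, a ratio of 19.9 (7.50 to 74.7). Ifit3b had 1 and 24.7 counts, a ratio of 23.1 (3.79 to 950). Ifit1bl1, with 6 and 11 counts, had a ratio of 1.70 whose interval (0.575 to 5.59) takes in 1. When these 2 libraries were compared within the fit of all 8, on the assumption that they vary like the doxycycline libraries, edgeR called 28 of 15250 genes (0.184%), 11 of them higher in shDis3l2 (0.0721%), and 0 of 5 members, with 1804 genes and 3 members (Ifit1, Ifit3 and Ifit3b) at an unadjusted p under 0.05. Ifit1 was at a log2 fold change of 3.63 (SE 0.65, 95% interval 2.09 to 5.16, edgeR adjusted p = 0.146), Ifit2 at 1.21 (SE 0.67, edgeR adjusted p = 0.516) and Ifit3 at 4.27 (SE 1.11, edgeR adjusted p = 0.276). Without shNS replicate 2 with doxycycline, which is not one of the 2 libraries compared, edgeR called 705 genes, Ifit1 and Ifit3 among them (adjusted p = 0.0128 and 0.0208), and without shNS replicate 1, shNS replicate 3, or shDis3l2 replicate 1, 2 or 3 with doxycycline it called 10, 14, 2, 15 and 22 genes and 0 members. DESeq2 called 647 genes and 2 members, Ifit1 and Ifit3. On the log2 CPM scale with a prior count of 2, 4 of 5 members were at least 2-fold higher in shDis3l2, beside 9.29% of the 15250 genes tested. The ratio of Ifit2 to Ifit1 was also higher in shNS, at 8.74 per kilobase in shNS and 1.62 in shDis3l2.

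For doxycycline itself, the estimates of Ifit1, Ifit2, Ifit3 and Ifit3b were above 0 in both lines, and no member passed the test. In shDis3l2 the log2 change from the single untreated library was 1.75 for Ifit1 (SE 0.50, 95% interval 0.57 to 2.94), 1.29 for Ifit2 (SE 0.57), 2.01 for Ifit3 (SE 0.80), 2.01 for Ifit3b (SE 1.14) and 0.33 for Ifit1bl1 (SE 0.82). In shNS it was 1.43 for Ifit1 (SE 0.56, 95% interval 0.12 to 2.75), 0.72 for Ifit2 (SE 0.56), 2.27 for Ifit3 (SE 1.00), 1.44 for Ifit3b (SE 1.81) and -1.02 for Ifit1bl1 (SE 0.91). The value of Ifit3b in shNS was 0.070 without shNS replicate 1, and its difference between the lines was then 1.94 in place of 0.57 (0.011 without shNS replicate 2). Of the treated shNS libraries, replicate 2 was the most like the untreated one (r = 0.984). Fits without replicate 2, given below, therefore cannot tell doxycycline in shNS from whatever sets these 2 libraries apart. For these 2 contrasts and their difference, edgeR called 0 of 15250 genes (0%), and 0 of 5 members. At an unadjusted p under 0.05 there were 646 genes in shNS, 504 in shDis3l2 and 577 for the difference, among them 1 member in shNS (Ifit1), 2 in shDis3l2 (Ifit1 and Ifit3) and 0 for the difference. DESeq2 called 72, 64 and 34 genes and 0 members in any of the 3. Without shNS replicate 2, edgeR called 544 genes for doxycycline in shNS and 121 for the difference, and again 0 members, with Ifit1 at 1.66 in shNS (adjusted p = 0.167).

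The doxycycline effect on Ifit1 was larger in shDis3l2 by 0.32 on the log2 scale (SE 0.73, 95% interval -1.39 to 2.03), and that on Ifit2 by 0.56 (SE 0.76, 95% interval -1.24 to 2.36). For Ifit3 the difference was -0.26 (95% interval -2.85 to 2.33). All 3 had an edgeR adjusted p of 1.00. These intervals reach beyond 2 on the log2 scale, so equal effects in both lines are not shown. The same term is the change in the line difference on adding doxycycline, the condition in which Dis3l2 fell to 0.481 of the shNS counts. Ifit1bl2 had the largest term of the cluster, 4.22 (SE 1.30, edgeR adjusted p = 1.00), and it rests on 1 count in the shDis3l2 library without doxycycline.

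**Figure D3:**
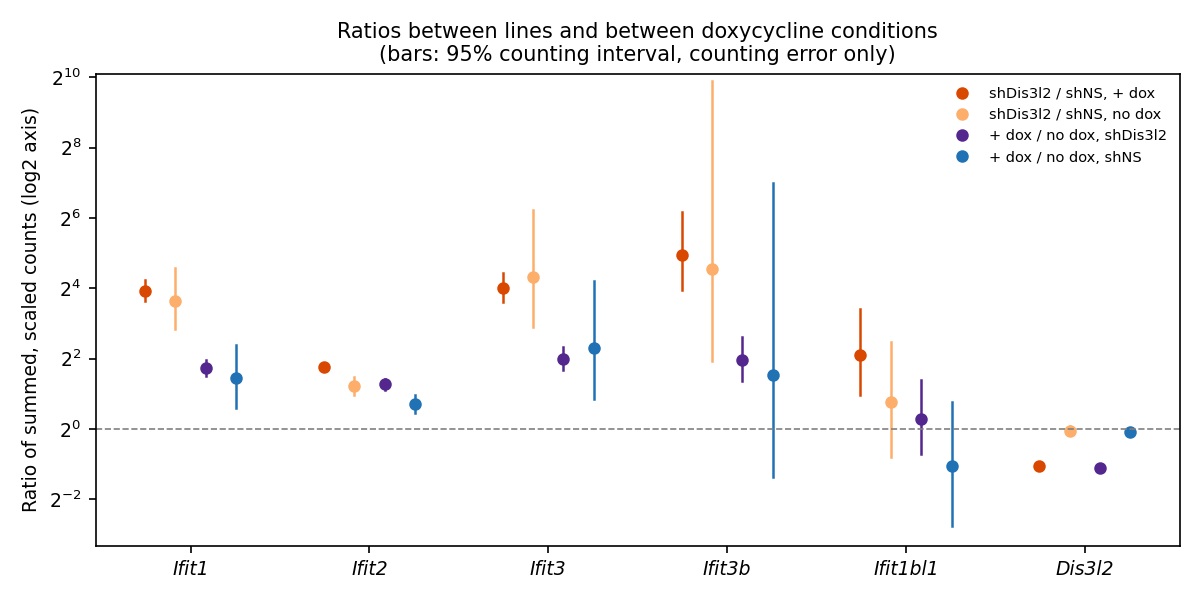
Ratios of summed counts scaled by effective library size, on a log2 axis, for the 5 members and Dis3l2. Each gene has 4 points, in order the lines with doxycycline, the lines without it, doxycycline in shDis3l2 and doxycycline in shNS, and bars are 95% counting intervals. Ifit1, Ifit2, Ifit3 and Ifit3b lie above 1 between the lines in both conditions, while Dis3l2 is below 1 with doxycycline (0.481) and near 1 without it (0.965).

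None of the tested neighbours of the cluster was called. Within 500 kb there were 11 other protein-coding genes, of which 6 were tested and edgeR called 0, with 0 also at an unadjusted p under 0.05, by DESeq2 and by limma-voom. Their median log2 fold change was 0.07, against -0.002 over all genes tested. On the near side of Ifit2, Lipa, the lysosomal acid lipase, was at 0.26 (SE 0.21, edgeR adjusted p = 0.563), and beyond Ifit1, Slc16a12, a membrane transporter, was at -0.60 (SE 0.53, edgeR adjusted p = 0.600). Fas, the death receptor, had the highest value of the 6 at 0.78 (SE 0.51, edgeR adjusted p = 0.461). Ch25h, which makes an antiviral oxysterol and is itself interferon-inducible in many macrophages, had 0 counts in all 8 libraries, as did Ankrd22 and Lipm.

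**Figure D4:**
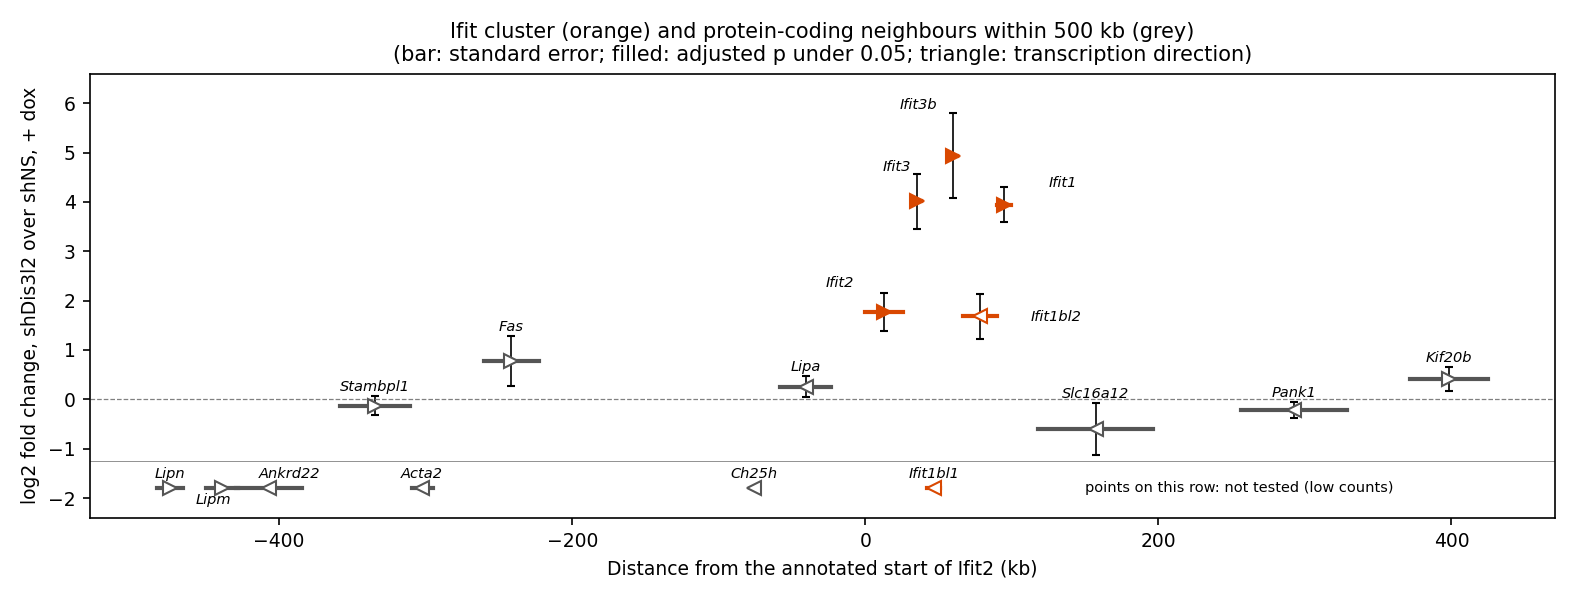
Log2 fold change between the lines with doxycycline against the distance from the annotated start of Ifit2, in kb, for the Ifit genes in orange and their protein-coding neighbours in grey. Triangles point in the direction of transcription, vertical bars are standard errors, filled symbols are calls, and genes not tested stand on the bottom row. The 4 called genes are Ifit2, Ifit3, Ifit3b and Ifit1, and none of the 6 tested neighbours is called.

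The machinery upstream of the IFIT genes was called in part. Of 22 genes of ISGF3 and interferon signalling, 21 were tested, 5 were higher in shDis3l2 and 0 lower, with a median log2 fold change of 0.26. Of all genes tested, 2.13% were called higher. Irf7, which drives later interferon expression, rose by 3.94 (SE 0.70, edgeR adjusted p = 0.0283). Irf9, part of ISGF3, rose by 1.35 (SE 0.24, edgeR adjusted p = 0.0207). Stat2, also in ISGF3, had 0.21 (SE 0.25, edgeR adjusted p = 0.704). The receptor subunit Ifnar2 rose by 0.71 and Tmem173, which encodes STING, by 0.57 (edgeR adjusted p = 0.0373 and 0.0465). Interferon beta itself, Ifnb1, had 1 and 2 counts in a shDis3l2 library with and one without doxycycline and 0 in the others. Left without shDis3l2 replicate 1, 2 or 3, 1 of the 21 genes was called, and Irf7, Irf9, Ifnar2 and Tmem173 were not. Without shNS replicate 2 there were 5, and without shNS replicate 3 there were 3.

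Most sensors of triphosphate or double-stranded RNA, kinds of RNA that IFIT proteins also meet in infected cells, were called higher. Of 14 such sensors, all tested, 10 rose and 0 fell, with a median of 1.63, where 2.13% of all genes tested were called higher. The list of 14 also held Tlr7, a receptor of single-stranded RNA, which was not called (0.10, edgeR adjusted p = 0.883). Zbp1 rose by 2.98, Oas1a by 1.84, Ddx58 (RIG-I, which binds RNA with a triphosphate end) by 1.60 and the editing enzyme Adar by 0.99 (edgeR adjusted p = 0.00857, 0.0169, 0.0216 and 0.0177). The count was 7 without shNS replicate 2, 5 without shNS replicate 3, and 1, 2 and 1 without shDis3l2 replicates 1, 2 and 3. In the same order, 299, 273, 147, 74 and 92 of all genes tested were called higher. Zbp1 was called in each of these fits. Of 24 other interferon-induced effectors, all tested, 18 rose and 0 fell, with a median of 2.30, beside the same 2.13% of all genes. The chemokine Cxcl10 rose by 6.75, Oasl2 by 3.61, the exonuclease Isg20 by 2.99 and Slfn5 by 1.23 (edgeR adjusted p = 0.00192, 0.00357, 0.00357 and 0.00451). Cxcl10 had only 12, 2 and 9 counts in shNS with doxycycline, which limits its fold. Replicates 2 and 3 there lay below the filter's minimum of 0.291 CPM. This count was 12 to 20 with any 1 library left out, the lowest being without shDis3l2 replicate 2 or 3, and Cxcl10, Oasl2, Isg20 and Slfn5 were called each time. Ifit1, Ifit3 and Ifit3b, at 3.95, 4.01 and 4.94, lay above the median of these effectors and Ifit2, at 1.78, below it.

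Of the eIF3 subunits and cap enzymes, on which IFIT proteins act or depend, a single gene was called. Among 14 eIF3 subunit genes, all tested, edgeR called 0, as did DESeq2 and limma-voom, with 0 at an unadjusted p under 0.05, and their log2 fold changes ran from -0.09 to 0.21. Of 9 enzymes that make, methylate or remove the cap, 0 rose and 1 fell, Rnmt, the cap guanine methyltransferase, by 0.79 (log2, SE 0.12, edgeR adjusted p = 0.0130). That call was lost without shDis3l2 replicate 2 or 3. Cmtr1, which adds the ribose methyl group whose absence Ifit1 recognises and is also interferon-inducible, was at 0.20 (SE 0.14, edgeR adjusted p = 0.480).

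The genes whose profile over the 8 libraries was most like that of Ifit1 were found among 11697 genes with a mean count of at least 50, by the root mean square difference of log2 CPM after centring each gene. Oasl2 was nearest (0.368), followed by Irf7 (0.536), Mx2 (0.550), Ifi44l (0.572) and Rsad2 (0.576), where the median gene was at 2.04. Oasl2 was at 3.18, 1.23 and 1.70 CPM in shNS with doxycycline, 27.8, 21.1 and 25.8 CPM in shDis3l2 with it, and 0.686 and 5.03 CPM in the lines without it. Like Ifit1, it was lowest in shNS without doxycycline, and replicate 1 was the highest of the shNS libraries. Unlike Ifit1, at 11.0, 15.7 and 18.3 CPM in shDis3l2 with doxycycline, Oasl2 was highest there in replicate 1. Nearest to the mean of the tested members were Oasl2 (0.399), Rsad2 (0.448), Cmpk2 (0.491), Zbtb32 (0.527) and Gbp9 (0.532), with a median of 1.88. The points share their libraries, and likeness is given as a description.

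**Figure D5:**
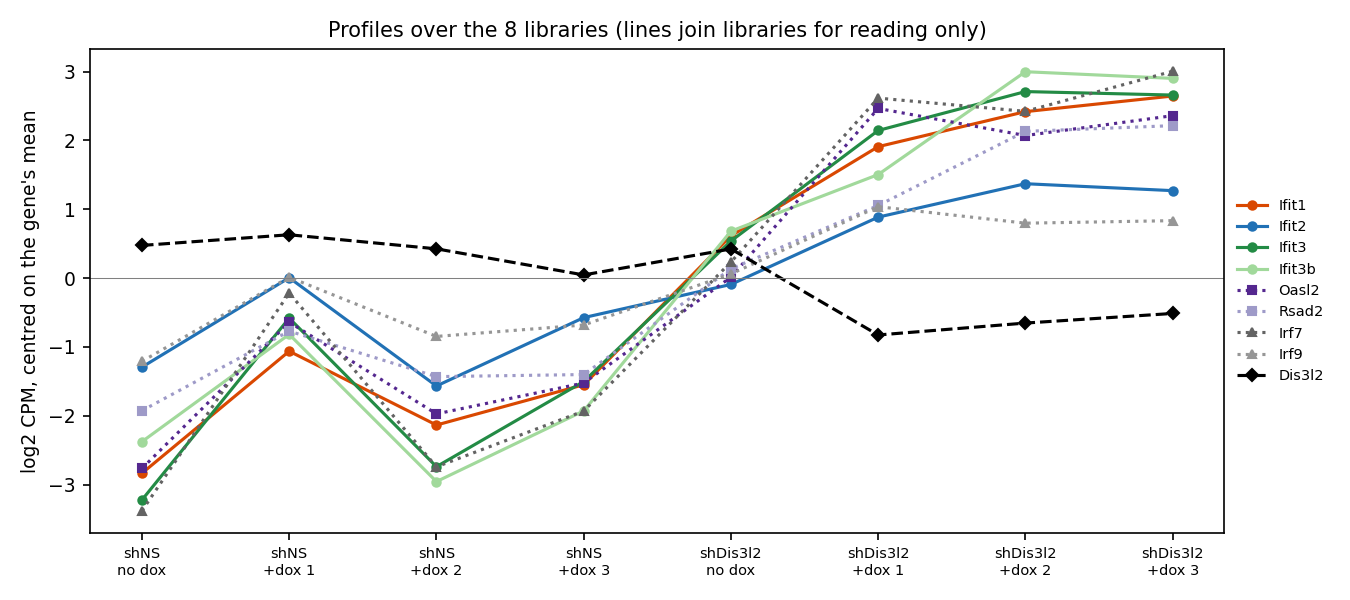
Log2 CPM of each gene (prior count 2), centred on its mean over the 8 libraries, for 4 IFIT genes (solid), Oasl2 and Rsad2 (dotted, squares), Irf7 and Irf9 (dotted, triangles) and Dis3l2 (dashed). Lines join libraries for reading only. Ifit1, Ifit3, Ifit3b, Oasl2, Rsad2, Irf7 and Irf9 are lower in every shNS than in every shDis3l2 library. For Irf9 the gap is narrow (0.012 in shNS replicate 1 with doxycycline and 0.060 in shDis3l2 without it). Ifit2 in shNS replicate 1 with doxycycline is level with shDis3l2 without it, and Dis3l2 is low only in shDis3l2 with doxycycline.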

How the data were processed

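Total RNA of RAW264.7 cells was sequenced in 8 libraries, from a stranded kit that removes ribosomal RNA, as 150 nt pairs per the labels. According to the submitters' processing notes, cutadapt, STAR 2.7, RSEM and the builds GRCm38 and mm10 were used, with other versions, annotation and strand setting not given. The deposited table holds RSEM's expected counts by gene, not normalized. All 55450 identifiers matched GENCODE M21.

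Expected counts were rounded, altering 4.68 to 5.24% of values per library. Genes passed filterByExpr (minimum count 10), libraries were scaled by TMM, and edgeR 4.0.16 (R 4.3.3) quasi-likelihood tests, two-sided with Benjamini-Hochberg adjustment over all genes tested and a threshold of 0.05, compared the lines with doxycycline (6 libraries) and doxycycline in each line (8 libraries). There, the spread of each single untreated library was taken to equal that of the other groups. Levels are CPM scaled over all 8 libraries. Libraries without doxycycline were compared by ratios with 95% exact counting intervals and, added after the data were seen, within the fit of 8 libraries. The tests were checked on simulated data. Alternatives used DESeq2 1.42.0, limma 3.58.1, other scalings and filters, a replicate block, summed paralogs and each library left out. List counts with libraries left out were added after the data were seen.

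The genes named are the 5 members and Ifit1bl2, protein-coding neighbours within 500 kb, up to 4 genes of each of 5 lists by smallest p, the 5 genes nearest in profile, markers, and Dis3l2, except for a result that is not reported here. Stat2, Tmem173, Ifnb1 and Cmtr1 were named for their roles after values were seen. The members and lists were chosen with earlier results of these data known. Promoters are from RefSeq (GRCm38.p6), where all 5 members matched, and coding sequences from GENCODE M21.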

Additional observations from a re-analysis of the deposited data

How the results depend on the processing

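Ifit1 and Ifit3 kept their direction and their call between the lines with doxycycline in 17 of 17 alternatives each (log2 fold change 3.70 to 4.29 and 3.59 to 4.75). The highest edgeR adjusted p was 0.0222 for Ifit1 and 0.0497, just inside the threshold, for Ifit3. Ifit2 kept its direction in 17 of 17 and lost its call in 9 (edgeR adjusted p = 0.0513 without the filter, 0.0518 with library size alone, 0.0522 with all 8 libraries, the rest with a library left out, a block or a 2-fold minimum), and Ifit3b lost its call in 5 of 16 (log2 fold change 4.36 to 6.34). The replicate numbers showed no sign of pairing the libraries (same-number correlations of deviations -0.122, 0.021 and -0.006). So few libraries per line cannot exclude pairing. With the replicate number as a block, 421 genes and 2 members, Ifit1 and Ifit3, were called in place of 845 and 4, and Ifit2 and Ifit3b were at 1.89 and 4.89 (edgeR adjusted p = 0.0957 and 0.0874). A 2-fold minimum left 219 genes and 2 members (Ifit2 adjusted p = 0.339, Ifit3b 0.0556), and DESeq2 called 1749 genes and 4 members. With 1 library left out, 203 (without shDis3l2 replicate 2) to 1157 genes and 2 to 4 members were called. The other low counts were 259 without shDis3l2 replicate 3 and 464 without replicate 1.

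For doxycycline in shNS, edgeR called 2 genes without the filter and DESeq2 72, with 0 to 544 when a library was left out. In shDis3l2 DESeq2 called 64. For the difference the counts were 2 without the filter, 34 with DESeq2 and 0 to 121 with a library left out. Members called were 0 in all of these. With a library left out, the change of Ifit1bl1 in shDis3l2 ran from -0.069 (without shDis3l2 replicate 2) to 0.652, and the difference for Ifit3 from -0.664 to 0.441 (without shNS replicate 1), with no call before or after. The longer form of the promoter motif, with 1 more A, was found in the same number of members, 4. Counts of 10 or fewer in shNS limit the folds of Ifit3b and Ifit1bl1. The cause of these dependences was not tested.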
